A study of Mus musculus with 63 samples.

Results

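Insulin-producing β cells of ICR mice aged 10 days (P10, n = 5 libraries) were compared with those of ICR mice aged 7 days (P7, n = 3). These 8 libraries, of 63 in the series, were taken by the age given in their titles. All 8 carried the genotype Cherry/+; Ins2-Cre/+, in which Cre driven from the insulin gene *Ins2* switches on the red protein mCherry, and all were labelled wild type, with sex not given. Islets were isolated and dispersed, and the mCherry-positive cells were sorted as β cells, so every library depends on that gate and on where Ins2-Cre is active. RNA came from a Qiagen column in P7 2, P7 3, P10 1 and P10 2 and from TRIzol in P7 1, P10 3, P10 4 and P10 5. The titles of P7 1 and P7 2 share a leading number, and so do those of P10 2 and P10 3. The labels do not say whether a shared number means shared animals, or how many animals gave each library. The p-values thus measure the spread between libraries within groups, estimated in 1 fit over all 63 libraries. Most of these 63 libraries came from older mice, some of them diabetic or of other strains. The spread between libraries may be technical. Library totals lay between 31284194 and 42890460 expected counts.

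In the first weeks of life the mouse β cell takes on the secretory machinery and the glucose dependence of the adult cell. Granule proteins, the glucose transporter and the enzymes and channels that couple glucose to membrane voltage are built up, while genes of fetal growth and genes that β cells normally keep silent, the disallowed genes, are turned down. Urocortin 3 (*Ucn3*) and synaptotagmin 4 (*Syt4*) are widely used markers of this maturation. Unless stated otherwise, levels below are CPM, read counts relative to library size scaled by TMM, folds are log2 values of P10 over P7 ± standard error, and a gene "rose" or "fell" where its adjusted p lay below 0.05 (two-sided quasi-likelihood test of edgeR with RNA extraction as a term, adjusted by Benjamini-Hochberg over 16092 genes).

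Promoter windows of 4 genes that the comparison turns on are shown for their motifs. The genes are the hormone genes *Ins1* and *Iapp* and the maturity marker *Ucn3*, all higher at P10, and *Dlk1*, an imprinted growth regulator, lower at P10. Each window holds 250 bases from RefSeq (GRCm38.p6, the assembly also called mm10), written 5′ to 3′ on the gene's strand. For *Ins1*, *Iapp* and *Ucn3* these are the bases directly before the gene's listed start. The *Dlk1* window instead lies inside the gene, past its listed start. Capitals mark 2 motifs, searched on both strands. CATCTG (or CAGATG) is the E box used by basic helix-loop-helix factors such as Neurod1, and TAAT (or ATTA) is the core bound by homeodomain factors such as Pdx1 and Nkx6-1.
Ins1 (chr19:52264047-52264296, plus strand): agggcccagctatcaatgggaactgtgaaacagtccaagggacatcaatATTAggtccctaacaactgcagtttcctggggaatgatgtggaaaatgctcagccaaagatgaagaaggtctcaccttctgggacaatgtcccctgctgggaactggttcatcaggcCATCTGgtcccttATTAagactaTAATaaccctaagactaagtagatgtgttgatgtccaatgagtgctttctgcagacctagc
Iapp (chr6:142298175-142298424, plus strand): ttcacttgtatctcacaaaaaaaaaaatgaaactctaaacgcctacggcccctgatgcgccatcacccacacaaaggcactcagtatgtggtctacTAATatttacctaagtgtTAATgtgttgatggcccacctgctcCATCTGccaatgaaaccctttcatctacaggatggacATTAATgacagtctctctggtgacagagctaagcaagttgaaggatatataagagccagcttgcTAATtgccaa
Ucn3 (chr13:3945350-3945599, minus strand): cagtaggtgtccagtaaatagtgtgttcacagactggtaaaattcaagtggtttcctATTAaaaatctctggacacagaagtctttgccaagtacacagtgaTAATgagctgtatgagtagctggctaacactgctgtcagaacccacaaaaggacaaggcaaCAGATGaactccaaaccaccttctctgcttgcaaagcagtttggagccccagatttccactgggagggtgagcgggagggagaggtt
Dlk1 (chr12:109452573-109452822, plus strand): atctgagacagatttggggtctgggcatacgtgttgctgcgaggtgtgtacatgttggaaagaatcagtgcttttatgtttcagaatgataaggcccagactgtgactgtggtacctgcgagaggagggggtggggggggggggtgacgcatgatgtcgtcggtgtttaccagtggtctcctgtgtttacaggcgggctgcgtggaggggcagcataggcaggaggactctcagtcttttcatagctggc
The *Ins1*, *Iapp* and *Ucn3* windows hold 1 E box each, at 84, 111 and 87 bases before the start, and 3, 5 and 2 homeodomain cores, 2 of which overlap in *Iapp*. The *Dlk1* window, which unlike the others lies past the gene's listed start, holds neither motif, so it says nothing of the bases before that start. Of 32807 promoter windows of this length, 14.5% hold the E box and 54.9% the homeodomain core, so a match describes the sequence and is no evidence of binding.

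The P7 libraries held far more RNA of other cells than the P10 libraries, and not the same RNA in each. The 16 stromal genes, collagens and genes of mural cells, made up 3.21%, 2.04% and 0.052% of counts in P7 1, P7 2 and P7 3, and 0.0404%, 0.0204%, 0.0139%, 0.00339% and 0.00211% in P10 1 to P10 5. The 22 liver genes made up 0.0536%, 0.757% and 0.0138% at P7 and 0.00339%, 0.00409%, 0.00399%, 0.00332% and 0.00342% at P10. The 25 acinar genes, which code for digestive enzymes of the exocrine pancreas, made up 1.21%, 11.9% and 17.9% at P7 and 0.345%, 0.661%, 0.452%, 0.0612% and 0.0605% at P10. For these 3 lists every P7 library lay above every P10 library. P7 1 was thus rich in stroma, P7 2 in stroma, liver and acinar genes, and P7 3 in acinar genes with a stromal share close to that of P10 1. Endothelial genes made up 0.0952%, 0.113% and 0.0103% at P7 and at most 0.00665% at P10, and myeloid genes 0.201%, 0.405% and 0.00912% against 0.0059% to 0.0363%, so that P7 3 fell within the P10 range for myeloid genes. No stromal or acinar gene was at 0 in any P7 library, whereas 2 to 11 of the 22 liver genes were at 0 in the P10 libraries and 7 in P7 3, and all 5 liver macrophage genes were at 0 in P10 3.

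**Figure D1:**
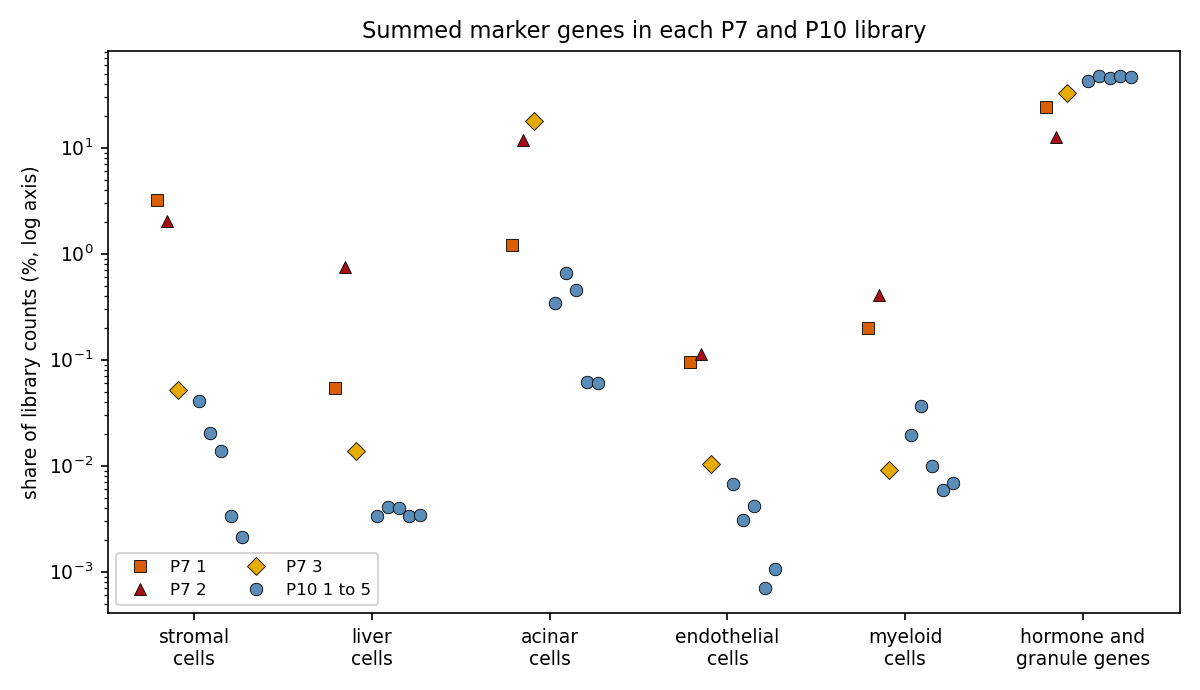
Share of library counts (percent, log axis) held by marker genes of 5 other cell types and by hormone and granule genes in each library, with P7 1 to 3 as squares, triangles and diamonds and P10 1 to 5 as circles. For the stromal, liver, acinar and endothelial lists all 3 P7 libraries lie above all P10 libraries, from 0.052% to 3.21% against at most 0.0404% for stroma.

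β cell genes were abundant in all 8 libraries, to different degrees. The 30 hormone and granule genes, led by *Ins1* and *Ins2*, made up 24.2%, 12.7% and 33.0% of counts in P7 1 to P7 3 and 42.4% to 47.2% in the P10 libraries. Genes of the other islet hormones were present at both ages without separating them: *Gcg*, which codes for glucagon, stood at 3905, 2044 and 2217 CPM at P7 and at 425 to 6013 CPM at P10, and *Sst*, which codes for somatostatin, at 310 to 968 CPM against 103 to 1330 CPM. Across genes (log2 of CPM plus 1, genes not being independent), P7 3 correlated with the P10 libraries at 0.935 to 0.966 and with P7 1 and P7 2 at 0.888 and 0.830, while the P10 libraries correlated with one another at 0.970 to 0.987. By this measure P7 3 lay nearer to the P10 libraries than to the other 2 of its own age. In bulk RNA, fewer β cells in a sort and less of a transcript per β cell cannot be told apart.

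Between P7 and P10, 29.4% of the genes tested changed, 10.5% being higher at P10 and 18.9% lower. Of the called genes, 35.6% were higher at P10 with TMM scaling and 23.5% with median-ratio (RLE) factors. The RLE factors moved the median fold of all genes from -0.04 to -0.19. Libraries were also scaled to an equal mean log level of the 22 β cell transcription factors. In that fit 1.12% of the called genes were higher and the median fold was -1.13. The groups did not overlap, P10 being higher, in 11.8% of genes, and did not overlap with P10 lower in 13.3%. P7 3 alone lay below all P10 libraries in 21.8% of genes and above all of them in 20.8%, and P7 2 was the lowest of the 8 libraries in 28.2%. The number of calls rested on the P7 libraries with stroma: 4731 genes were called in all, 2779 without P7 1, 1585 without P7 2 and 6072 without P7 3. Without those P1 and P7 libraries whose stromal share exceeded 1%, which leaves P7 3 as the sole P7 library with its spread taken from the other groups, 7 genes or 0.0423% were called (645 at an unadjusted p below 0.05). With the summed stromal, liver and acinar levels as terms in the fit, 5 genes or 0.0311% were called (1046 at an unadjusted p below 0.05). In neither of these 2 fits was any gene called higher at P10 or any member of the gene lists below called in either direction. The part of the other cells in each result below was not tested. Counts of list members called below in the fit of all libraries are to be set against 10.5% higher and 18.9% lower among all genes. Other fits have other shares. Without P7 2, 106 of 16317 genes were higher and 1479 lower. Without P7 3, 2475 of 16438 genes were higher and 3597 lower. With the transcription factor scaling 0.69% of genes were higher and 60.8% lower.

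Hormone and granule genes rose together. Of 30 tested, 24 rose and none fell, against 10.5% of all genes, with a list median of 1.16 against -0.04 for all genes. *Ins1* (chromosome 19, insulin 1) stood at 35360, 16921 and 75845 CPM in P7 1, 2 and 3 and at 91223, 97392, 95403, 105105 and 102231 CPM in P10 1 to 5, a fold of 1.39 ± 0.41 (adjusted p = 0.0087, edgeR). *Iapp*, which codes for amylin, the peptide released with insulin, went from 6886, 3528 and 14660 CPM to 16510, 19638, 18613, 19314 and 18583 CPM (1.34 ± 0.36). For both genes the 3 P7 libraries kept 1 order, P7 2 lowest and P7 3 highest, and all lay below P10. *Ins2* also rose (1.26 ± 0.44), but its level in P7 3, 210399 CPM, fell within the P10 range of 197402 to 266179 CPM. Without P7 2 the adjusted p was 0.158 for *Ins1*, 0.112 for *Iapp* and 0.286 for *Ins2* (edgeR), and *Ins2* was also not called without P7 1 (0.0886) or P10 4 (0.051).

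Genes of the release machinery were also among the rises. *Rab3a*, a small GTPase on secretory vesicles, stood at 42.8, 23.1 and 73.4 CPM at P7 and at 96.7, 102, 114, 114 and 103 CPM at P10 (1.23 ± 0.23, adjusted p = 6.88e-05, edgeR). *Resp18*, a granule protein of endocrine cells, stood at 165, 54.3 and 296 CPM against 362, 649, 439, 419 and 465 CPM (1.53 ± 0.34). *Rab27a*, the GTPase that docks insulin granules, went from 50.3, 9.63 and 45.5 CPM to between 55.6 and 126 CPM (1.49 ± 0.39). *Snap25*, part of the complex that fuses granules with the membrane, rose by 1.15 ± 0.27, *Scg2*, a secretogranin, by 1.40 ± 0.36, and *Pcsk1*, a convertase that cuts proinsulin, by 1.46 ± 0.41. Not all members moved: *Pam*, which amidates peptides, stood at 77.8 to 189 CPM at P7 and 44.5 to 199 CPM at P10, and *Stx1a*, a syntaxin, at 8.87 to 13.03 CPM against 9.68 to 13.4 CPM. P7 2 was the lowest of the 8 libraries for 28 of the 30 genes, against 28.2% of all genes. P7 3 lay below all P10 libraries for 18, against 21.8% of all genes. Without P7 2, 2 of 30 rose (median 0.73), *Rab3a* and *Resp18*, and in the fit with 3 marker terms the median was 0.45 with no call.

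Of 22 β cell transcription factors 12 rose and 1 fell (median 0.97), against 10.5% and 18.9% of all genes. *Neurod1*, a driver of insulin transcription, stood at 91.2, 38.8 and 177 CPM at P7 and at 206, 202, 248, 240 and 257 CPM at P10 (1.16 ± 0.23, adjusted p = 0.000178, edgeR). *Insm1*, a zinc-finger repressor of endocrine cells, stood at 44.2, 13.6 and 56.8 CPM against 101, 61.5, 129, 132 and 136 CPM (1.53 ± 0.38). *Pdx1*, the homeodomain factor needed for β cell identity, stood at 82.4, 31.6 and 175 CPM against 182 to 210 CPM (1.10 ± 0.28), and *Pax6* at 67.2, 29.7 and 122 CPM against 137 to 161 CPM (1.02 ± 0.23). For these 4 genes no P7 library reached the P10 range. Only *Neurod1* of the 4 was still called without P7 2, with an adjusted p of 0.0702 for *Insm1*, 0.108 for *Pdx1* and 0.0527 for *Pax6* (edgeR).

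For *Nkx6-1* and *Mafa* P7 3 lay within the P10 range. *Nkx6-1*, a factor of β cell identity, rose by 0.95 ± 0.32, from 63.7, 28.2 and 134 CPM to 122, 161, 146, 118 and 130 CPM. *Mafa*, a late activator of insulin, stood at 48.95, 7.00 and 48.8 CPM at P7 and at 112, 48.2, 118, 132 and 103 CPM at P10 and was not called (1.42 ± 0.62, adjusted p = 0.0756, and 0.0287 without P7 3, edgeR). *Bach2*, a repressor best known from lymphocytes, was the 1 member that fell, with P7 3 above all P10 libraries (6.39, 9.23 and 1.72 CPM to 0.459 to 1.37 CPM, -2.95 ± 0.69). The list median was 0.56 without P7 2, where 1 member rose (*Nkx6-1* had an adjusted p of 0.341, edgeR), and 0.11 without the stroma-rich libraries.

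Of 23 genes of glucose sensing and excitability 11 rose and none fell (median 0.91), against 10.5% and 18.9% of all genes. *Slc2a2*, the glucose transporter of mouse β cells, stood at 138, 38.7 and 242 CPM at P7 and within 315 to 341 CPM in the 5 P10 libraries (1.26 ± 0.38). *Abcc8*, the sulfonylurea receptor of the KATP channel, stood at 248, 75.9 and 365 CPM against 674, 495, 646, 550 and 567 CPM (1.3 ± 0.34). The other subunit of the channel, *Kcnj11*, was not called, at 5.78, 1.91 and 9.96 CPM against 6.71 to 11.97 CPM (0.63, but called without P7 3, adjusted p = 0.0114, edgeR). Without P7 2, none of the 23 was called (adjusted p = 0.195 for *Slc2a2* and 0.104 for *Abcc8*, edgeR), with a list median of 0.67.

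The incretin receptor *Glp1r*, target of the gut hormone GLP-1, gave the largest rise among genes of at least 10 CPM whose groups did not overlap (2.60 ± 0.85, adjusted p = 0.0185, edgeR). It lies on chromosome 17 from 30901867 to 30936510. Its levels were 49.9, 4.80 and 46.8 CPM at P7 and 389, 72.1, 196, 195 and 193 CPM at P10. P7 1 and P7 3 gave nearly the same scaled level, and the P10 libraries spread from 72.1 to 389 CPM. The TMM factors were 1.75 in P7 1, 1.02 in P7 3 and 1.14 in P10 2. Both the near-equal level of P7 1 and P7 3 and the lack of overlap therefore depend on the scaling. *Gipr*, the receptor of the other incretin GIP, rose by 1.39 ± 0.53, from 28.1, 8.99 and 11.8 CPM to 14.7 to 88.5 CPM, with overlap. *Trpm5*, a calcium-activated cation channel, stood at 19.1, 11.2 and 36.7 CPM against 59.0, 72.7, 68.4, 64.3 and 63.8 CPM (1.66 ± 0.42). Single libraries decided the calls of the 3 genes: *Glp1r* had an adjusted p of 0.164 without P7 2, 0.0557 without P7 1 and 0.0682 without P10 1, *Trpm5* of 0.0689 without P7 2, and *Gipr* was lost without any of P7 1, P7 2, P7 3, P10 1, P10 3, P10 4 and P10 5 (0.0516 to 0.209, edgeR).

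Of 18 maturity markers 12 rose and 1 fell (median 1.24), against 10.5% and 18.9% of all genes. The 2 best known markers separated the ages in every library. *Syt4*, a synaptotagmin that tunes the glucose dependence of secretion, stood at 14.3, 3.76 and 10.8 CPM at P7 and at 51.7, 29.7, 28.3, 30.3 and 29.4 CPM at P10 (1.82 ± 0.35, adjusted p = 0.000123, edgeR). *Ucn3*, a peptide that acts on neighbouring delta cells, stood at 160, 47.04 and 323 CPM against 444, 656, 542.2, 464 and 434 CPM (1.56 ± 0.45). P7 3 was below P10 by a wider margin for *Syt4*, where it lay under P7 1, than for *Ucn3*, where it was the highest P7 library. *Ero1lb*, an oxidase that helps proinsulin fold, stood at 441, 164 and 819.2 CPM against 1367, 1289, 1258, 1212 and 1146 CPM (1.44 ± 0.28).

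*Prlr*, the prolactin receptor, rose by 1.03 ± 0.29 in the fit, but P7 3, at 297 CPM, equalled the P10 median. The member that fell was *Tspan1*, a tetraspanin, at 0.678, 7.14 and 13.8 CPM against 0.261 to 0.755 CPM (-3.77 ± 1.03), and it was highest in the 2 libraries with most acinar RNA. Without P7 2, 2 of the 18 markers rose, *Syt4* and *Ero1lb*, and 1 fell (median 0.77), with an adjusted p of 0.135 for *Ucn3* and 0.194 for *Prlr* (edgeR), and *Prlr* had 0.0594 without P7 1. Without the stroma-rich libraries the log2 fold was 1.69 ± 0.48 for *Syt4* (adjusted p = 0.404, edgeR, 1 P7 library), close to its value over all libraries, 0.64 for *Ucn3* and 1.86 for *Glp1r*, none of them called.

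**Figure D2:**
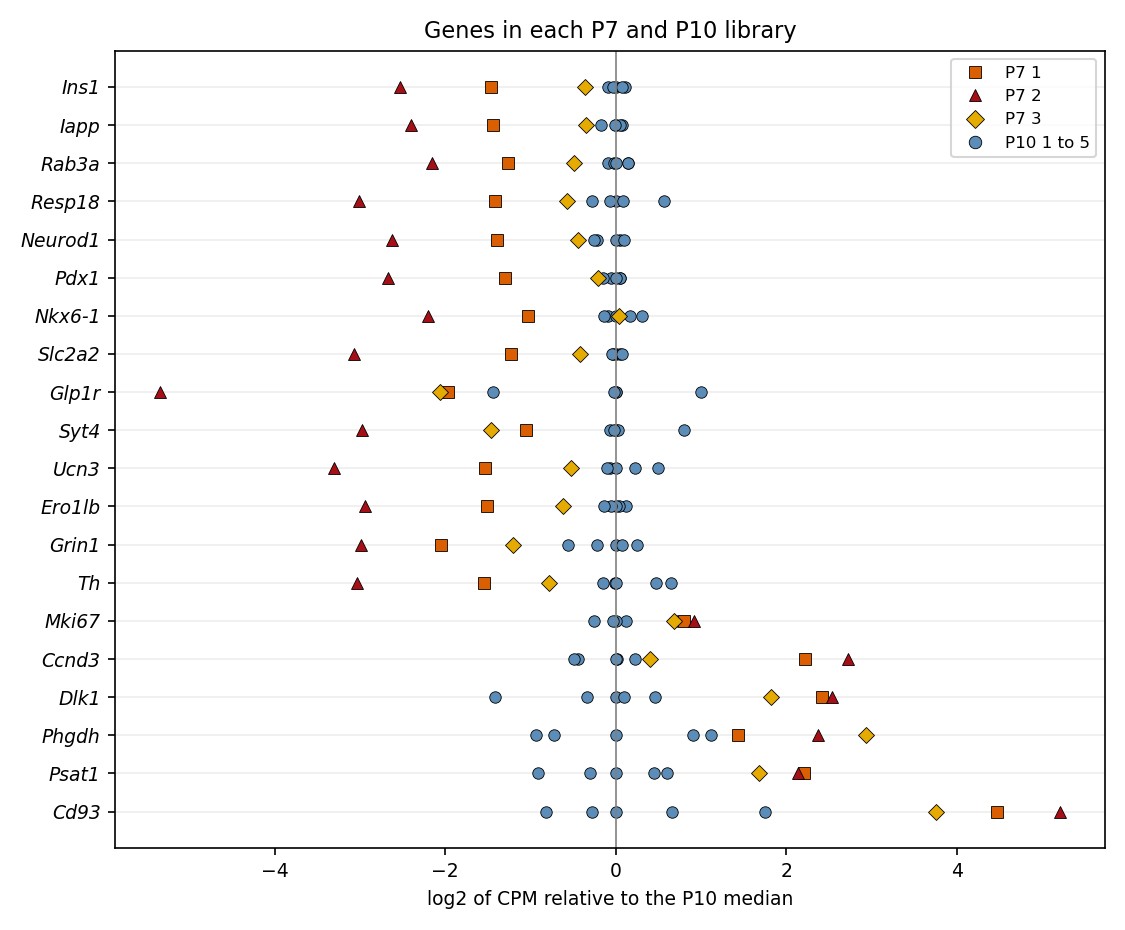
CPM of 20 genes in each library as log2 of the ratio to the gene's P10 median (x axis), with P7 1 to 3 as squares, triangles and diamonds and P10 1 to 5 as circles. For *Ins1*, *Iapp*, *Rab3a*, *Syt4*, *Ucn3*, *Grin1* and *Th* all P7 libraries lie left of all P10 libraries, for *Dlk1*, *Phgdh*, *Psat1* and *Cd93* all lie right of them, and P7 3 (diamond) is inside the P10 range for *Nkx6-1*.

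The 10 largest rises by the same rule held 9 genes besides *Glp1r*. *Grin1*, the obligate subunit of NMDA-type glutamate receptors, stood at 9.84, 5.11 and 17.7 CPM at P7 and at 48.6, 27.6, 40.7, 35 and 42.9 CPM at P10 (1.89 ± 0.41, adjusted p = 0.000559, edgeR). *Th*, the first enzyme of catecholamine synthesis, stood at 21.7, 7.70 and 36.8 CPM against 57.1, 62.7, 63.2, 87.7 and 99.4 CPM (1.88 ± 0.42). *Cldn8*, a claudin of tight junctions, stood at 23.19, 8.10 and 31.7 CPM against 128, 79.97, 83.4, 83.5 and 49.2 CPM (2.01 ± 0.61). In all 3 genes every P7 library lay below every P10 library. The others were *Dnah8*, an axonemal dynein (2.07 ± 0.65), *Sytl3*, a synaptotagmin-like Rab27 effector (2.02 ± 0.62), *Myo3a*, an actin motor (1.95 ± 0.59), *Jade3*, a chromatin factor (1.90 ± 0.71), *Neb*, which codes for nebulin (1.83 ± 0.48), and *Car15*, a carbonic anhydrase (1.82 ± 0.71). Of the 10, *Grin1* and *Th* were called whichever P7 or P10 library was left out. The adjusted p of the other 8 without P7 2 lay between 0.078 for *Neb* and 0.309 for *Car15* (edgeR), and *Car15*, *Jade3*, *Myo3a* and *Neb* were also not called without P7 1 (0.103, 0.0986, 0.06 and 0.0523). *Car15* was lost without P10 2, P10 3, P10 4 or P10 5 as well (0.0536 to 0.0754) and *Jade3* without P10 1 or P10 3 (0.0507 to 0.0894, edgeR).

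A scaling to an equal mean log level of the β cell transcription factors asks which genes rose beyond that mean. The factors were not all level there: 3 of the 22 were called higher and 1 lower, with a list median of 0.25. Among them *Insm1* was at 0.78, *Neurod1* at 0.47 and *Bach2*, the 1 lower, at -4.26. In that fit 0.69% of genes were higher at P10 (111, of which 93 had no overlap) and 60.8% were lower. The 12 of smallest p among these 93 with at least 10 CPM, a choice made after their values were seen, held *Grin1* (1.12, adjusted p = 0.00167, edgeR), *Ero1lb* (0.77) and *Sstr3*, a somatostatin receptor carried by the primary cilium (0.89). *Ina*, a neuronal intermediate filament, stood at 14.6, 4.63 and 20.6 CPM at P7 and at 42.4, 38.3, 34.5, 37.9 and 35.6 CPM at P10 (1.57 ± 0.28, and 0.84 with that scaling). *Hepacam2*, an adhesion protein of the immunoglobulin family, stood at 118, 32.9 and 213 CPM against 308 to 383 CPM (0.83 with that scaling). The rest of the 12 were *Ccdc92b*, *Galnt14*, *Slc24a2*, *Anks4b*, *Cdkl2*, *Chrnb2* and *Dnaja4*, at folds of 0.79 to 1.10 with that scaling. Of the maturity markers, *Syt4* (1.00), *Ucn3* (0.95) and *Glp1r* (1.98) were also called higher there.

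Chaperones of the endoplasmic reticulum had 10 of 24 members that rose and none that fell, with a median of 0.71 that became -0.14 under the transcription factor scaling. *Dnajb9*, a co-chaperone, stood at 45.1, 20.95 and 55.8 CPM at P7 and at 79.6 to 110 CPM at P10 (1.26 ± 0.33), and *Ero1l*, an oxidase, at 37.6, 17.7 and 41.3 CPM against 51.9 to 75.98 CPM (1.00 ± 0.28). *Canx* (0.71 ± 0.21), a lectin chaperone, changed sign to -0.14 with that scaling. Without P7 2, 1 member rose, *Ero1lb*.

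Of 22 genes of cholesterol synthesis and uptake 6 rose and none fell (median 0.44, and -0.49 under the transcription factor scaling). *Lss*, lanosterol synthase, stood at 16.3, 11.1 and 21.3 CPM against 31.8 to 44.98 CPM (1.17 ± 0.36), and *Cyp51* rose by 1.10 ± 0.34. Neither gene overlapped between the ages. None of the 22 was called without P7 2.

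Of 20 glucose-responsive genes 4 rose and 4 fell, a share of falls near the 18.9% of all genes. *Pfkfb2*, which makes the activator of phosphofructokinase, stood at 25.4, 23.5 and 39.2 CPM at P7 and at 66.4, 52.1, 63.03, 72.5 and 71.0 CPM at P10 (1.10 ± 0.26, adjusted p = 0.00156, edgeR), and *Acly*, ATP citrate lyase, rose by 1.5 ± 0.50. *Txnip*, an arrestin-like protein induced by glucose through ChREBP, fell from 174, 185 and 62.2 CPM to 31.0, 44.1, 47.5, 19.9 and 34.0 CPM (-2.04 ± 0.47), and its relative *Arrdc4* fell by 1.25 ± 0.44. The transcription factor of this response, ChREBP (*Mlxipl*), was not called, at 118, 50.9 and 66.0 CPM against 85.9 to 377 CPM (1.27, adjusted p = 0.0564, and 0.042 without P10 2, edgeR). Without P7 2, 1 gene of this list rose and 2 fell, and *Acly* and *Arrdc4* had an adjusted p of 0.223 and 0.137.

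In glycolysis 3 of 22 genes rose and 8 fell, against 10.5% and 18.9% of all genes, so the share of rises was near that of all genes. The rises were *Pkm*, pyruvate kinase (0.89 ± 0.23), *Pgam1*, phosphoglycerate mutase (0.65 ± 0.15, and -0.24 under the transcription factor scaling), and *Pfkm*, phosphofructokinase (0.53 ± 0.20, and -0.34 under that scaling). The falls held genes that β cells keep low. *Ldha*, lactate dehydrogenase A, stood at 135, 224.6 and 40.7 CPM at P7 and at 8.52, 7.22, 1.97, 2.40 and 1.52 CPM at P10 (-5.00 ± 0.85), and *Slc16a1*, the lactate and pyruvate carrier MCT1, at 21.5, 22.4 and 4.91 CPM against 0.0241 to 1.33 CPM (-4.65 ± 1.04). In P7 3, too, both lay above all P10 libraries. Genes of lipid oxidation and ketone synthesis gave 1 rise and 7 falls among 27, against the same shares of all genes. The rise was *Hadh* (0.97 ± 0.26), a short-chain dehydrogenase prominent in β cells. Without P7 2, none of the glycolysis genes rose and 5 fell, and 3 of the lipid genes fell and none rose.

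Of 28 disallowed genes tested, 25 fell and none rose, against 18.9% of all genes, with a median of -4.66. *Zyx*, a focal adhesion protein, stood at 94.3, 77.7 and 13.4 CPM at P7 and at 2.77 to 7.24 CPM at P10 (-3.76 ± 0.52), and *Igfbp4*, a secreted IGF-binding protein, at 511, 556 and 23.0 CPM against 4.06 to 19.04 CPM (-5.22 ± 0.71). *Rest*, the repressor of neuronal genes, stood at 22.9, 35.9 and 6.45 CPM against 0.0483 to 2.14 CPM (-4.99 ± 1.11). P7 3 lay above all P10 libraries for 21 of the 28, against 20.8% of all genes, but its levels were well below those of P7 1 and P7 2. Without the stroma-rich libraries the list median was -2.03 and with the 3 marker terms -1.02. No member was called with the 3 marker terms. Stromal, liver and acinar shares were also higher at P7, and their part in these falls was not tested.

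Progenitor and dedifferentiation genes gave 10 falls and no rise among 23 (median -1.67). *Hes1*, a target of Notch signalling, stood at 16.6, 33.7 and 8.72 CPM at P7 and within 4.18 to 4.73 CPM at P10 (-2.08 ± 0.37). *Sox9*, a factor of ducts and progenitors, stood at 10.3, 16.9 and 24.4 CPM against 0.169 to 2.51 CPM (-3.74 ± 1.07), and *Cd24a*, a surface protein of immature cells, at 34.8, 40.2 and 58.2 CPM against 7.56 to 20.7 CPM (-1.79 ± 0.57). *Sox9* and *Cd24a* were highest in P7 3, the library with the largest acinar share, whereas *Vim*, which marks stroma, was highest in P7 2, at 314 CPM, and 30.2 CPM in P7 3 (-5.42 ± 0.99). *Neurog3*, the trigger of endocrine fate, was not called, at 0.818 to 2.02 CPM against 0.0237 to 0.898 CPM, nor was *Aldh1a3*, a marker of dedifferentiated β cells (-3.24, adjusted p = 0.0645, and 0.0328 without P7 3, edgeR). Without P7 2, 6 of the 23 fell.

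Of 23 peptide and young-islet genes 9 fell and 1 rose (median -1.03), against 18.9% and 10.5% of all genes. *Dlk1* (-2.42 ± 0.62, adjusted p = 0.00306, edgeR) stood at 265, 288 and 175 CPM at P7 and at 49.4, 18.54, 52.9, 39.1 and 68.0 CPM at P10, so that P7 3 lay near the other P7 libraries. *Igf2*, a fetal growth factor, stood at 357, 866 and 30.2 CPM against 1.21 to 6.93 CPM (-6.93 ± 0.91), *Cdkn1c*, an imprinted cell cycle inhibitor, at 219, 446 and 14.7 CPM against 2.44 to 3.61 CPM (-6.13 ± 0.77), and *Mest* at 310, 570 and 38.8 CPM against 0.996 to 6.12 CPM (-6.68 ± 1.00). For these 3 genes P7 3 was closer to P10 than to P7 1 or P7 2. *Ghrl*, the hormone ghrelin, fell from 7.58, 5.94 and 7.02 CPM to 0.217 to 3.53 CPM (-2.65 ± 0.94), with an adjusted p of 0.258 without P7 1 and of 0.0501 to 0.0695 without P7 2, P10 1, P10 4 or P10 5 (edgeR).

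Other genes of immature islets showed no call. *Nnat*, imprinted and abundant in young β cells, stood at 147, 67.3 and 274 CPM at P7 and at 176 to 258 CPM at P10 (0.51 ± 0.52), and *Pyy*, a gut peptide made in young islets, at 1064, 499 and 1945 CPM against 1250 to 2069 CPM (0.64 ± 0.74). *Npy* was at 37.2, 27.7 and 121 CPM against 71.2 to 141 CPM (0.72 ± 0.79). In each of these genes P7 3 lay within or above the P10 range.

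Receptors for hormones and growth factors split, 5 of 28 higher and 12 lower, against 10.5% and 18.9% of all genes. The rises were receptors known in β cells: *Sstr3* (11.5, 5.87 and 27.1 CPM to 32.3 to 57.7 CPM, 1.60 ± 0.31), *Adra2a*, the α2A-adrenergic receptor that restrains insulin release (1.13 ± 0.29), the galanin receptor *Galr1* (1.18 ± 0.42), the growth hormone receptor *Ghr* (0.93 ± 0.25) and *Prlr*. Among the falls were *Fgfr1*, at 31.6, 42.7 and 6.68 CPM against 0.19 to 1.75 CPM (-4.91 ± 0.59), and *Rarb*, a retinoic acid receptor (-5.87 ± 1.41). Both were highest in P7 1 and P7 2, as were the stromal genes, and this likeness was not tested. Without P7 2, 1 receptor rose, *Sstr3*, and 3 fell.

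**Figure D3:**
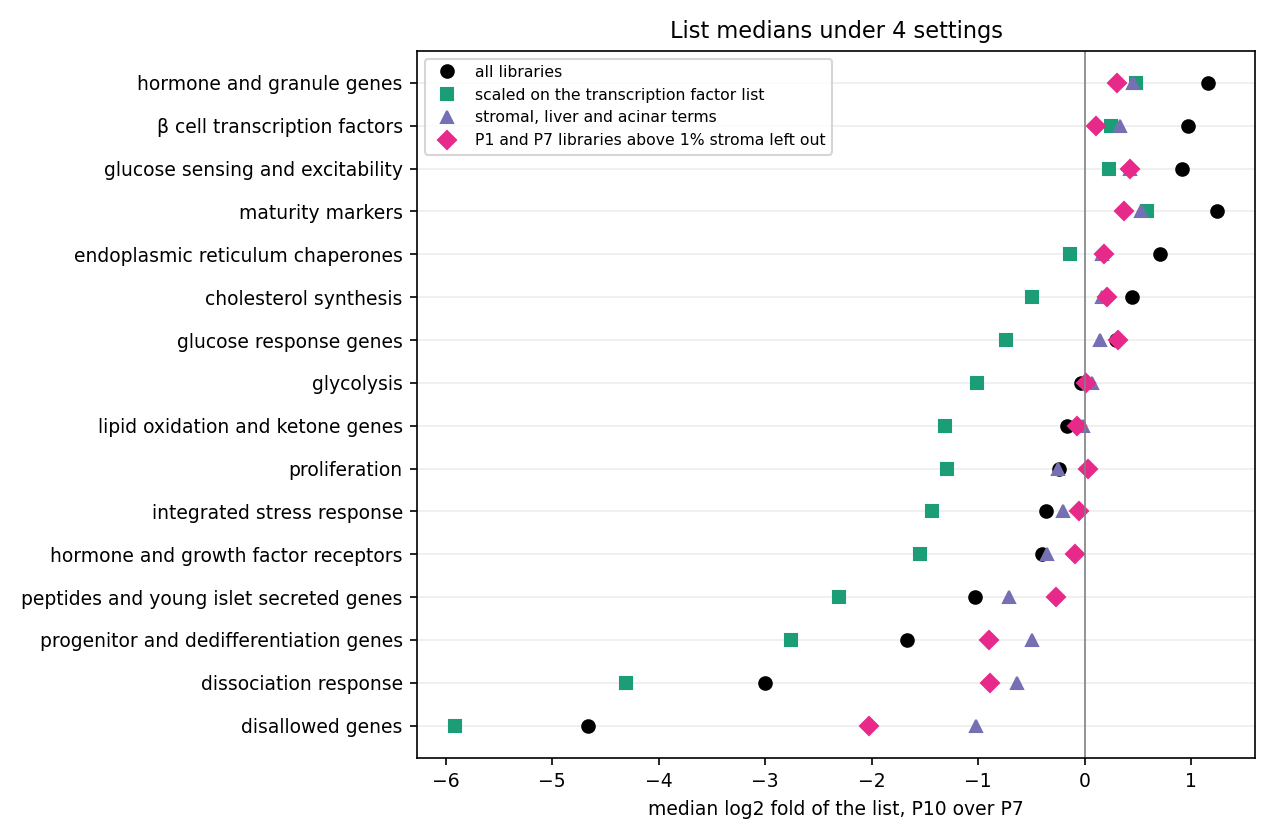
Median log2 fold of P10 over P7 (x axis) of 16 gene lists in the fit of all libraries (circles), under scaling on the transcription factor list (squares), with stromal, liver and acinar terms (triangles) and without those P1 and P7 libraries whose stromal share exceeded 1% (diamonds). The medians of the hormone and granule list, 1.16, 0.48, 0.45 and 0.30, and of the maturity markers, 1.24, 0.59, 0.53 and 0.37, stay above 0 in all 4 settings, whereas those of chaperones and of cholesterol synthesis pass to -0.14 and -0.49 under the transcription factor scaling.

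Early response genes, which can be induced while tissue is dissociated, were higher at P7. Of 21 tested 18 fell and none rose (median -3.0), and the list made up 0.584%, 0.731% and 0.116% of counts at P7 and 0.0887%, 0.0389%, 0.0679%, 0.0789% and 0.0586% at P10. *Fos* and *Jun*, the partners of the AP-1 factor, stood at 753, 682 and 187 CPM against 18.2 to 75.6 CPM (-3.72 ± 0.74) and at 407, 842.7 and 213 CPM against 27.6 to 105 CPM (-3.01 ± 0.56). *Ier2* stood at 192, 304 and 96.3 CPM against 11.9 to 46.5 CPM (-2.92 ± 0.44). P7 3 lay above all P10 libraries for 12 of the 21 genes, among them these 3, against 20.8% of all genes.

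The integrated stress response gave 3 rises and 10 falls among 24, against 10.5% and 18.9% of all genes, so the share of rises was near that of all genes. *Phgdh*, the first enzyme of serine synthesis, stood at 32.5, 62.3 and 92.2 CPM at P7 and at 22.6, 26.03, 7.29, 11.98 and 6.28 CPM at P10 (-1.86 ± 0.44, adjusted p = 0.00153, edgeR), and *Psat1*, the next enzyme, at 22.4, 21.5 and 15.6 CPM against 7.38, 6.63, 2.58, 4.86 and 3.94 CPM (-1.95 ± 0.38). *Eif4ebp1*, which binds the cap-binding factor of translation, fell by 2.06 ± 0.46. All 3 P7 libraries lay above P10 for these genes, whereas *Ppp1r15a*, a phosphatase subunit, fell (-1.49 ± 0.32) with P7 3, at 33.2 CPM, inside the P10 range. *Phgdh* followed the order of the acinar share among the P7 libraries, and the reason was not tested. Its fold was -1.72 without the 2 P7 libraries above 10% acinar share. It was -1.32 with an acinar term (adjusted p = 0.0115) and -0.88 with a liver term (0.352, edgeR). *Atf4*, *Ddit3* and *Trib3*, transcription factors and a pseudokinase of the same response, were not called (*Ddit3* at 0.30, and called lower at -0.86 under the transcription factor scaling). Without P7 2, none of the list rose and 7 fell.

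Of 34 proliferation genes 2 fell and none rose (median -0.24). Under the transcription factor scaling 18 of the 34 fell, against 60.8% of all genes (median -1.29, against -1.13 for all genes). *Mki67*, an antigen of dividing cells, stood at 41.9, 45.4 and 38.7 CPM at P7 and at 26.1, 39.1, 20.2, 24.04 and 23.5 CPM at P10 (-0.58 ± 0.67, adjusted p = 0.547, and -1.66 with 0.0452 under that scaling, edgeR). *Ccnd3*, a G1 cyclin also used by blood and stromal cells, fell from 127, 180 and 35.9 CPM to 19.4 to 31.9 CPM (-2.17 ± 0.27), and *Mcm7*, part of the replicative helicase, from 41.7, 38.1 and 35.1 CPM to 19.1 to 29.2 CPM (-0.65 ± 0.23). *Mcm7* was not called without P7 1, P7 2, P10 4 or P10 5 (adjusted p from 0.0503 to 0.0942, edgeR).

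Of 22 liver genes 20 fell, and the 10 largest falls by the rule used for the rises included *Ahsg*, *Kng1*, *Fga*, *Pzp* and *Afp*, plasma proteins made by the liver. *Afp*, α-fetoprotein of the young liver, stood at 12.2, 491 and 0.423 CPM at P7 and at 0 to 0.119 CPM at P10 (-10.97 ± 1.73), and *Alb*, albumin, at 58.4, 835 and 1.62 CPM against 0 to 0.612 CPM (-9.38 ± 1.66). *Bhmt*, a methyltransferase of hepatocytes, and *Oit3*, a gene of liver endothelium, had no count at P10, so that they were at least 1735-fold and 909-fold lower there (taking 3 counts over the 5 libraries as the floor, which covers counting error only). These bounds rest on P7 2: *Bhmt* stood at 2.60, 62.6 and 0.0249 CPM and *Oit3* at 0.204, 33.4 and 0.797 CPM at P7, and without P7 2 the bounds were 116-fold and 33-fold. P7 2 was the highest library for these genes, and without it 13 of the 22 liver genes fell.

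All 16 stromal, 12 of 13 endothelial, 17 of 20 myeloid, 12 of 15 lymphoid and 7 of 7 erythroid genes also fell, and none of these rose. *Col1a2*, a fibrillar collagen, stood at 2413, 1376 and 41.5 CPM at P7 and at 32.4, 17.4, 10.7, 4.20 and 1.01 CPM at P10 (-6.77 ± 1.39, and 0.99 with the summed stromal level, which it is part of, as a term). *Hba-a1*, an α-globin, stood at 24.6, 397 and 45.2 CPM against 1.08 to 8.52 CPM (-5.53 ± 1.46), and *H2-Ab1*, of MHC class II, at 83.3, 190 and 4.18 CPM against 0.845 to 7.28 CPM (-4.98 ± 0.97). P7 3 was thus at the P10 level for MHC class II and above it for globin and collagen. Without P7 2, 15 stromal, 4 endothelial, 4 myeloid, 6 lymphoid and no erythroid genes fell.

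Of 25 acinar genes 12 fell, though P7 3 lay above all P10 libraries for 23, against 20.8% of all genes. *Ctrb1*, a chymotrypsinogen, stood at 859, 11001 and 19708 CPM at P7 and at 270, 550, 291.9, 25.3 and 23.3 CPM at P10 (-4.76 ± 1.74, adjusted p = 0.0332, edgeR), and *Cpa1*, a carboxypeptidase, at 231, 1703 and 5317 CPM against 15.5 to 171 CPM without a call (-4.19 ± 1.68, adjusted p = 0.0532, edgeR). Without P7 2 none of the 25 was called and without P7 3 1 was lower and 1 higher, and *Ctrb1* was not called without P10 1, P10 2, P10 4 or P10 5 either (adjusted p from 0.0544 to 0.0688). Acinar shares vary widely in these sorts at other ages too, from 0.0363% to 34.2% in the adults. Of 14 duct genes 6 fell, among them *Sox9*, *Muc1* and *Spp1*, and 3 rose, among them *Epcam* (0.79 ± 0.22), an adhesion protein that β cells also carry, which was at -0.11 without the stroma-rich libraries and was not called without P7 1 (adjusted p = 0.0681) or P7 2 (0.234, edgeR).

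Among 10 alpha cell and 10 delta and PP cell genes, *Slc7a2* (which was at -0.12 under the transcription factor scaling) and *Aqp4* rose, *Gc*, *Hhex*, *Lepr*, *Rbp4* and *Etv1* fell, and the hormone genes were not called. Of 9 mesothelial genes 5 fell and 1 rose (median -3.80), against 18.9% and 10.5% of all genes. Among the falls, *Wt1* stood at 7.29, 11.5 and 0.224 CPM against 0 to 0.184 CPM (-7.05 ± 1.48). The 1 rise was *Krt7*, a keratin (0.84 ± 0.28). *Msln*, the surface protein mesothelin, was at 148, 74.6 and 187 CPM at P7 and 224.9 to 664 CPM at P10, without overlap and without a call (1.80 ± 0.98, adjusted p = 0.159, edgeR). Of 9 Schwann and neural cell genes 4 fell. None of the alpha cell genes was called without P7 2, and *Aqp4*, *Lepr*, *Etv1* and *Krt7* were lost without P7 1 (adjusted p = 0.136, 0.0895, 0.184 and 0.0597) and without P7 2 (0.251, 0.0982, 0.15 and 0.372, edgeR). *Slc7a2* was lost without P7 1 (0.151), P7 2 (0.359), P10 2 or P10 3 (0.0606 and 0.0614), *Hhex* without P7 1 (0.0511), *Gc* without P7 2 (0.0541), *Rbp4* without P7 2 (0.208), P10 1 or P10 4 (0.0533 and 0.0563), and *Etv1* also without P10 1, P10 3, P10 4 or P10 5 (0.0591 to 0.108, edgeR).

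Few falls were called in the 2 fits where the β cell lists lost their calls, and only *Cd93* was called in both. The fit given first keeps P7 3 as the sole P7 library. Without those P1 and P7 libraries whose stromal share exceeded 1%, the 7 genes called were *Aldh1b1*, *Gls2*, *Tmem221*, *Cdo1*, *Mgat4a*, *Slc22a8* and *Cd93*, all lower at P10. *Cd93*, a receptor of endothelial and myeloid cells, stood at 26.5, 44.1 and 16.1 CPM at P7 and at 1.88, 4.02, 0.983, 1.19 and 0.676 CPM at P10, with folds of -4.02 ± 0.51 over all libraries, -2.87 without the stroma-rich ones and -3.31 with the 3 marker terms. *Cdo1*, cysteine dioxygenase, stood at 14.3, 41.7 and 8.57 CPM against 0.854 to 1.70 CPM (-4.09 ± 0.48), and *Mgat4a*, a glycosyltransferase that acts on the glucose transporter, at 4.46, 14.5 and 11.4 CPM against 0.522 to 2.75 CPM (-2.81 ± 0.49). These 3 were higher in every P7 library than in any at P10. *Slc22a8* lay near the floor, at 0.187, 0.127 and 0.324 CPM at P7 and 0 in every P10 library.

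*Aldh1b1*, an aldehyde dehydrogenase of pancreatic progenitors, stood at 4.26, 9.92 and 18.98 CPM at P7 and at 1.69 to 3.24 CPM at P10 (-2.13 ± 0.40), and *Gls2*, a glutaminase, at 1.17, 14.6 and 31.2 CPM against 0.451 to 2.31 CPM (-3.13 ± 0.65). Both followed the order of the acinar share among the P7 libraries, and without the 2 P7 libraries above 10% acinar share *Aldh1b1* was at -0.87 (adjusted p = 0.316) and *Gls2* at 0.09 (0.992, edgeR). With the summed acinar level as a term both were still called, at -2.08 (adjusted p = 0.000357) and -2.34 (0.00127, edgeR). *Tmem221* stood at 2.10, 1.94 and 2.29 CPM against at most 0.184 CPM, almost level over the 3 P7 libraries (-4.80 ± 0.83). With the 3 marker terms the 5 genes called were *Cd93*, *Padi3*, *Grik1*, *Pcp4l1* and *Zp3*, all lower at P10 and, apart from *Cd93* and *Pcp4l1*, under 3 CPM in every library.

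Set beside the other ages of ICR mice, the P10 libraries were close to adults in some genes and not in others, given here as levels with no test. The adults were 21 libraries pooled over a wide span of ages. *Ucn3* had a median of 79 CPM at E18.5, 41.5 CPM at P1, 160 CPM at P7, 464 CPM at P10 and 754 CPM in adults, and *Syt4* of 7.32, 4.42, 10.8, 29.7 and 96.7 CPM, so that P10 stood between P7 and the adult for both. *Glp1r* and *Th* were higher at P10, at medians of 195 and 63.2 CPM, than in adults, at 80.4 and 23.6 CPM, and all 5 P10 libraries lay above the highest adult library for *Th* (47.2 CPM). *Dlk1* had a median of 49.4 CPM at P10 and 0.831 CPM in adults, with no overlap. *Phgdh* was lower at P10 (6.28 to 26.03 CPM) than at E18.5 (61.1 to 113 CPM). Its P10 median of 11.98 CPM lay below the adult median of 53.4 CPM. Of the 5 P10 libraries 3 lay inside the adult range of 11.2 to 102 CPM. The acinar share had a median of 0.0942% at E18.5, 0.345% at P10 and 9.26% in adults, and its part in these levels was not tested. *Ldha* at P10 (1.52 to 8.52 CPM) lay within the adult range of 0.557 to 25.2 CPM.

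**Figure D4:**
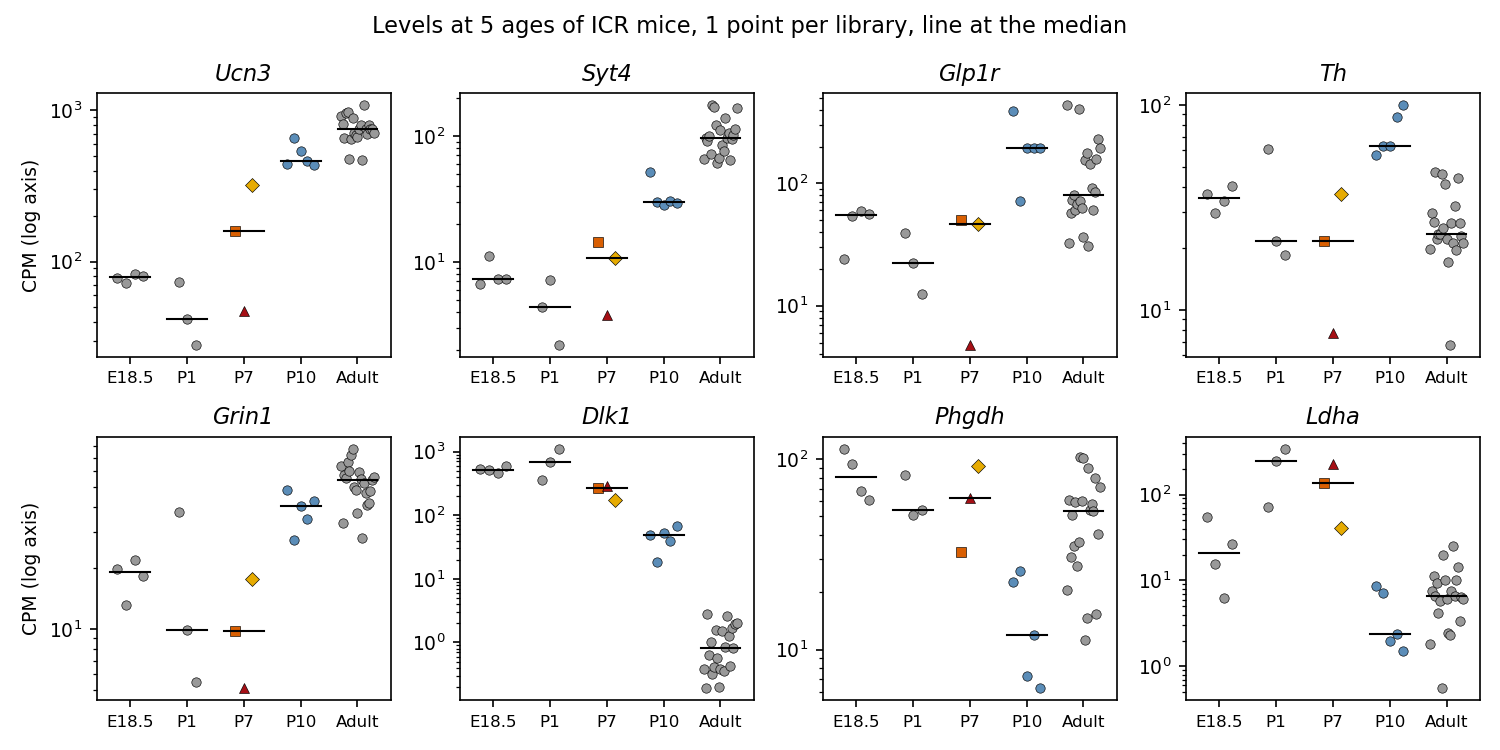
CPM (log axis) of 8 genes at 5 ages of ICR mice, the adults pooled over a wide span of ages. Each library is 1 point, with a line at the group's median. P7 1 to 3 are drawn as a square, a triangle and a diamond. *Ucn3*, *Syt4* and *Grin1* are higher at P10 than in any P7 library and have higher medians in adults, *Th* is higher at P10 than in any adult library, and *Phgdh* and *Ldha* are lower at P10 than in any P7 library.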

How the data were processed

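The authors deposited RSEM expected counts per gene for 63 libraries (20306 genes), made with bcl2fastq 2.20.0.422, Bowtie 1.2.2, RSEM 1.3.0 and the mm10 build, per the submitters' processing notes. The annotation and strand setting were not given in the sources used here. Expected counts were rounded to whole numbers, since 48.5% of values were not whole. Groups came from the ages in the titles.

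Genes passing edgeR's filterByExpr (16092) were scaled by TMM and fitted with edgeR 4.0.16 (R 4.3.3, robust quasi-likelihood) in 1 model over all 63 libraries, with 9 group means and an RNA extraction term. The contrast was P10 minus P7, adjusted by Benjamini-Hochberg at 0.05. CPM are TMM-scaled, and marker shares are percentages of the unscaled library totals. DESeq2 1.42.0 and limma 3.58.1 served as alternatives, beside other scalings, filters, extraction subsets, marker terms and left-out libraries. On simulated data for this comparison (15846 genes), 42% of genes changed 2-fold (log2 of 1) and 88% of genes changed 4-fold (log2 of 2) were recovered. Of the unchanged genes 0.0575% were called, and they made up 6.47% of the calls. Genes were drawn independently around 1 mean per group. The simulation therefore held no shared difference in stromal, liver or acinar RNA among the P7 libraries and does not cover its effect on the calls.

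The samples, gene lists and named genes were chosen with earlier results of these data known. Named genes were the 10 largest rises and 10 largest falls without overlap among called genes of at least 10 CPM, up to 4 called members of each list by p (or 2 where none was called), fixed anchor genes, and the genes of smallest p called without high-stroma libraries (up to 10) or with the 3 marker terms (up to 6 each way). Predicted genes, RIKEN and pseudogene names, mitochondrial, immunoglobulin and Y-linked genes and the X-inactivation transcripts were left out of the ranked choices, and some genes that the rule names are not reported here. *Acly*, *Adra2a*, *Aldh1a3*, *Arrdc4*, *Atf4*, *Cd24a*, *Ddit3*, *Etv1*, *Fos*, *Galr1*, *Ghr*, *Ghrl*, *Gipr*, *Jun*, *Kcnj11*, *Krt7*, *Mlxipl*, *Msln*, *Neurog3*, *Pam*, *Pcsk1*, *Pfkm*, *Pkm*, *Rest*, *Scg2*, *Stx1a*, *Trib3*, *Tspan1*, *Zp3* and the 12 genes called with transcription factor scaling were chosen after their values were seen. Promoter sequences are from RefSeq (GRCm38.p6).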

Additional observations from a re-analysis of the deposited data

Results flagged for a closer look

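Among 167 marker shares and gene levels examined over the 5 P10 libraries, 15 had 1 library set apart, its gap to the nearest other library divided by the whole range exceeding Dixon's 95% critical value of 0.71. For independent, normally distributed values chance alone sets apart about 1 library in 20 such groups. That rate does not hold for *Fga*, *Kng1*, *Grik1* and *Pzp*. These genes were at 0 in all P10 libraries but 1, so their ratio was 1.000 whatever the count.

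P10 2 held the most of other islet hormones. *Sst*, somatostatin, stood at 1330 CPM there against 103 to 390 CPM in the other P10 libraries, *Rbp4*, a marker of delta and PP cells in mouse islets, at 86.4 CPM against 19.2 to 35.9 CPM, and *Ghrl*, ghrelin, at 3.53 CPM against 0.217 to 1.08 CPM. The same library was lowest for *Rab27a*, at 55.6 CPM against 110 to 126 CPM, and for *Jade3*, at 7.41 CPM against 21 to 24.8 CPM. It was also highest, at levels of a few counts, for the liver genes *Ahsg* (0.0816 CPM against 0 to 0.0218 CPM), *Fga* and *Kng1* (0.0204 CPM each, and 0 in the other 4).

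P10 1 was highest for *Syt4*, at 51.7 CPM against 28.3 to 30.3 CPM, and without P10 1 the log2 fold of P10 over P7 was 1.61 against 1.82 over all libraries. It was also highest for *Dnah8*, at 134 CPM against 56.4 to 69.4 CPM, for *Pkm*, at 999 CPM against 881 to 905 CPM, and for *Pcp4l1*, at 0.561 CPM against 0.0218 to 0.102 CPM, and lowest for *Nnat*, at 176 CPM against 239 to 258 CPM. P10 3 alone held counts of *Grik1* (0.0218 CPM) and *Pzp* (0.0437 CPM).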

How the results depend on the processing

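Of 4731 genes called, the count was 7803 with limma voom and sample weights, 9887 with scaling on the transcription factor list, 2514 against a 1.5-fold change, 358 in the Qiagen libraries (2 P7, 2 P10), 1728 in the TRIzol libraries (1 P7, whose spread is assumed like that of the other groups), 1656 with the P7 and P10 libraries alone and 1852 with libraries of a shared title number summed. It was 106 with a stromal term, 253 with a liver term, 5 with stromal, liver and acinar terms together, 7 without those P1 and P7 libraries whose stromal share exceeded 1% and 2298 without the 2 P7 libraries above 10% acinar share, an alternative chosen after seeing the data. Leaving out 1 library gave 1585 to 6072. DESeq2 (4247), RLE factors, other filters, no extraction term, a term for S numbers above 60 and an acinar term (3451) stayed within 1.5 times of 4731.

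For 138 genes in the text, 2698 of 3702 gene and setting pairs kept direction and side of the threshold, 925 lost the call, 24 gained one, 45 changed sign with no call in either fit and 10 changed sign with a call in at least 1. Among these 10 the sign changed with transcription factor scaling for *Canx* (-0.14), *Ddit3* (-0.86), *Pfkm* (-0.34), *Pgam1* (-0.24), *Slc7a2* (-0.12) and *Stx1a* (-0.87), with 3 marker terms for *Col1a2* (1.31), with a stromal term for *Col1a2* (0.99), without the stroma-rich libraries for *Epcam* (-0.11), and without the acinar-rich P7 libraries for *Gls2* (0.09). The cause of these changes was not tested. With 3 P7 libraries of unlike makeup, an age difference and a difference in the sorted cells cannot be told apart. No paired analysis was possible because the replicate numbers were given in accession order and name no shared animal or day.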
